A study of Mus musculus with 7 samples.

Results

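The collagen chain genes are the rows of the expression table whose symbol is *Col*, a type number, the letter a and a chain number. This rule found 35 genes of the 14732 listed, and they were grouped by the structure that their chains build into 10 fibrillar, 6 basement membrane, 8 fibril-associated (FACIT) and 11 other collagens. The table comes from outflow tracts (OFTs), the vessel that joins the embryonic ventricles to the aortic sac, of mouse embryos at E11.5. RNA was sequenced from 3 control pools (WT, replicates 3, 4 and 5) and 4 *Gata6STOP/+* pools (replicates 1, 3, 4 and 5), the latter from embryos of a line in which CRISPR-Cas9 editing of *Gata6* left 1 allele with an early stop codon. Each library held a pool of dissected OFTs, so that embryos and cell types were mixed within it. The sex of the embryos is not given. The methods give 3 pools per genotype, whereas the labels show 3 and 4, and all 7 were used. Nothing else was deleted or added in either group, as far as the labels and methods state.

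Collagens are secreted or membrane-bound proteins whose chains wind around each other into a triple helix. The helix requires a glycine at the start of each Gly-X-Y triplet of amino acids. Fibrillar collagens (types I, II, III, V, XI, XXIV and XXVII) form or seed the banded fibrils that bear tension. Type IV collagens form the sheet-like network of basement membranes, and types XV and XVIII are proteoglycans anchored at those membranes. FACITs sit on the surface of fibrils. The remaining chains build beaded filaments (type VI), hexagonal networks (type VIII), anchoring fibrils (type VII) or span the cell membrane (types XIII, XXIII and XXV). In the embryonic OFT, collagens are part of the matrix of the endocardial cushions, from which the arterial valves form.

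The repeat that defines the family can be read in the transcripts. The stretches below are 45 bases long, were read from the GRCm38 assembly in the direction of transcription, and lie in coding exons of 1 chain of each class. The capitals mark GGN, a glycine codon, at the start of each Gly-X-Y triplet.

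*Col1a2* (fibrillar), chr6:4515210-4515254, plus strand: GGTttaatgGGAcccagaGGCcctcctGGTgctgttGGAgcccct

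*Col4a1* (basement membrane), chr8:11247051-11247095, minus strand: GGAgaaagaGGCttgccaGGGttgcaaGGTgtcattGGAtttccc

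*Col9a1* (FACIT), chr1:24210373-24210417, plus strand: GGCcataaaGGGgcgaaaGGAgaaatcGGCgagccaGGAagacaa

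*Col8a1* (other), chr16:57628048-57628092, minus strand: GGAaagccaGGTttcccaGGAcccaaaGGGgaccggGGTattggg

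The longest run of such triplets in the longest coding transcript of each gene set the fibrillar chains apart, while the ranges of the other classes overlapped. It was 338 to 344 triplets in 8 of the 10 fibrillar chains, while *Col27a1* had 217 and *Col24a1* had 216. FACITs had shorter runs, of 113 triplets in *Col9a1*, *Col9a2*, *Col9a3* and *Col22a1*, 52 in *Col16a1* and 32 in *Col12a1*, *Col14a1* and *Col20a1*. The type IV chains, whose repeats are broken by many interruptions, had 40 to 66, and *Col15a1* and *Col18a1* had 30 each. Among the other collagens the run went from 23 triplets in *Col26a1* to 87 in *Col6a1* and *Col6a2*.

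*Gata6* itself had 286±28.9 CPM (mean±s.d.) in the control pools and 227±28.7 CPM in *Gata6STOP/+* pools, with overlapping groups (CPM being reads scaled to a common library size; log2 fold change -0.34, adjusted *P*=0.389 by limma). The paper reported lower *Gata6* in its own edgeR analysis and by quantitative PCR. Depth on listed genes was 17783655 to 34467710 reads a pool. Of the tissue's defining lists, all 7 cardiomyocyte markers and all 5 OFT and second heart field markers were listed, with summed levels of 16273 to 22861 CPM and 550 to 699 CPM over the pools. The control pools had 39.9 to 93.4 CPM summed over 4 Y-linked genes and the *Gata6STOP/+* pools had 70.4 to 174 CPM. These genes are expressed in male cells. All 4 had a higher mean in *Gata6STOP/+* pools, with log2 fold changes of 0.80 to 1.11. In the fits below that take the Y-linked mean as a covariate, genotype and Y-linked level can therefore not be fully told apart.

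Most collagen RNA of the OFT came from the genes of fibrillar and basement membrane chains. To set genes against each other, CPM were divided by the length of the longest coding transcript. On this per-kilobase level, *Col3a1*, the chain of type III collagen of distensible tissues, ranked highest in the control pools (377±4.86 CPM per kilobase, n=3). *Col1a1* (205±19.7), *Col1a2* (197±2.93) and *Col18a1* (191±19.5) followed, and the control values of each overlapped those of its neighbour in this order, whereas *Col3a1* lay clear of *Col1a1*. A step down led to *Col4a1* (113±15.6), *Col2a1* (110±17.3), *Col5a1* (84.4±8.34), *Col4a2* (76.0±9.74) and *Col5a2* (72.5±4.50), and here too neighbours overlapped. *Col9a1*, at 53.1±9.20, was the highest FACIT, and its control values did not overlap those of *Col5a2* above or *Col4a5* (35.4±0.411) below it. The highest of the other collagens were *Col6a1* (22.4±2.68) and *Col6a2* (18.2±0.865). The lowest were *Col11a2*, *Col7a1*, *Col24a1* and *Col20a1*, between 0.201 and 0.702 CPM per kilobase. The order and the distances depend on the transcript chosen. With the union of all annotated exons as the length, *Col3a1* had 214, *Col1a1* 186 and *Col1a2* 84.8 CPM per kilobase. The level moved by more than the control s.d. for 21 of the 35 genes.

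**Figure D1:**
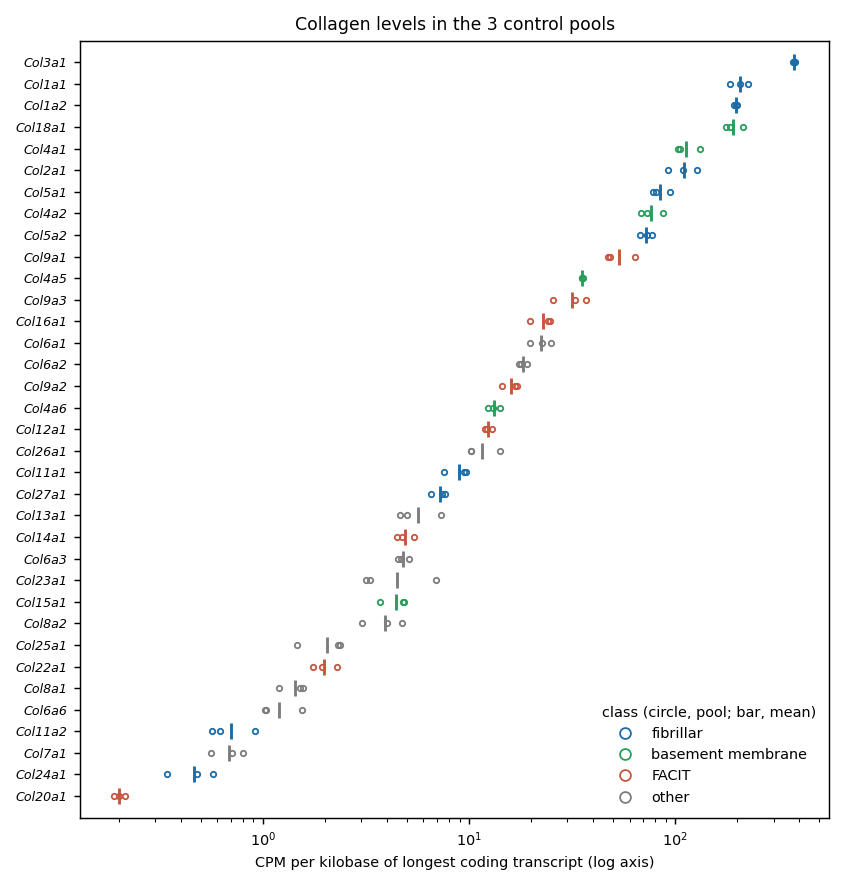
Level of each collagen gene in the control OFTs, as CPM per kilobase of the longest coding transcript on a log axis. Circles are the 3 control pools, bars their mean, and colours the class; *Col3a1* stands highest at 377 and *Col20a1* lowest at 0.201.

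Summed over the 35 genes, collagens took 10240, 9750 and 9756 CPM in control replicates 3, 4 and 5. The *Gata6STOP/+* pools had 11304 (replicate 1), 8187 (replicate 3), 9599 (replicate 4) and 10132 CPM (replicate 5). The lowest and the highest of the 7 sums were thus both *Gata6STOP/+* pools, and the means of 9915±281 and 9806±1293 CPM differed by less than the spread between pools. Fibrillar chains made up most of it, with 6251±262 CPM in control and 6205±962 CPM in *Gata6STOP/+* OFTs. Basement membrane chains summed to 2651±190 and 2557±175 CPM, FACITs to 659±55.1 and 722±151 CPM, and the others to 355±13.5 and 322±43.0 CPM. In each of the 4 classes the groups overlapped.

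Each gene was tested between genotypes with limma on log2(CPM+0.5), with Benjamini-Hochberg adjustment across the whole table of 14732 genes. Of the 35 collagens, 0 had an adjusted *P*-value under 0.05, against 0% of all genes. Likewise, edgeR's quasi-likelihood test on the reads recovered from the table called 0, against 0% of all genes. An unadjusted limma *P*-value under 0.05 was found for 5 collagens (*Col8a1*, *Col12a1*, *Col6a2*, *Col9a3* and *Col4a6*), or 14.3% of them, against 8.06% of all genes. Groups did not overlap for 5 collagens: *Col8a1*, *Col12a1*, *Col4a5* and *Col4a6* were higher in every *Gata6STOP/+* pool (4.31% of all genes were), and *Col6a2* was lower in every one (4.16% of all genes). In the likelihood ratio test of edgeR, the package that the study also used, 2 collagens had an adjusted *P*-value under 0.05, *Col8a1* and *Col12a1*, against 0.713% of all genes, and DESeq2 called the same 2 genes, against 0.597%. So did the likelihood ratio test once replicate numbers entered as a block, against 0.801% of all genes. The mean lay lower in *Gata6STOP/+* OFTs for 22 of the 35 collagens and for 50.2% of all genes. The median log2 fold change was -0.07 over the collagens and -0.00073 over all genes. Without *Gata6STOP/+* replicate 3, the mean lay lower for 17 of the 35 collagens and their median was 0.0042. In these bulk pools, fewer cells of a type and less RNA per cell cannot be told apart.

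**Figure D2:**
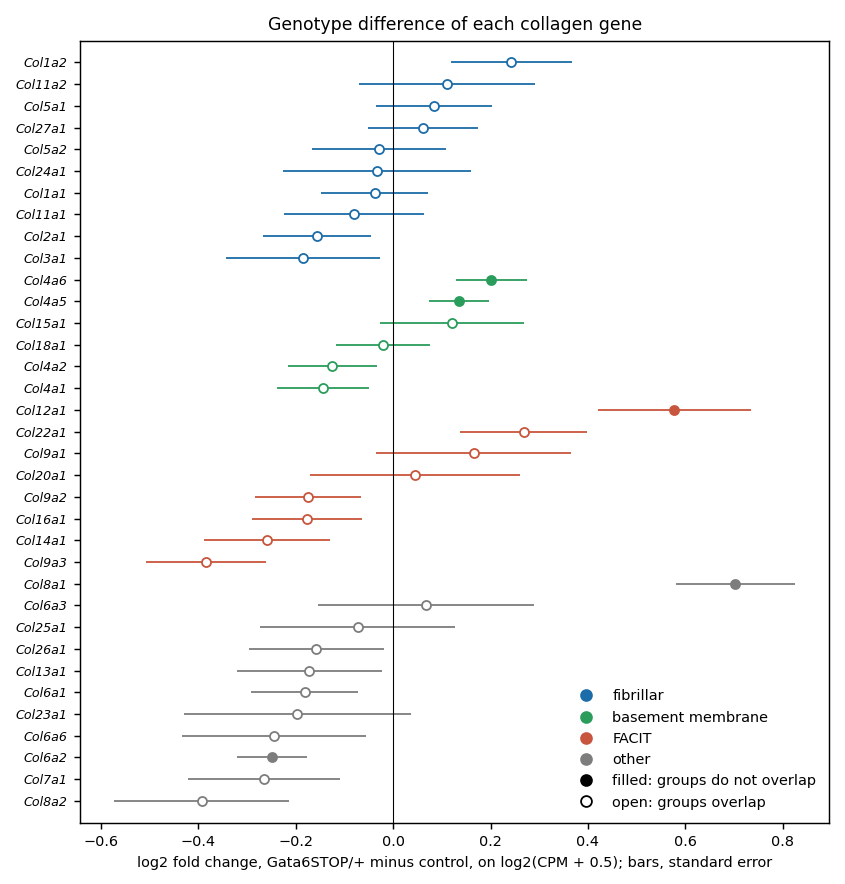
Genotype difference of the 35 collagen genes as log2 fold change of *Gata6STOP/+* over control OFTs, with standard errors as bars and classes as colours. Filled points are the 5 genes whose groups do not overlap; *Col8a1* lies farthest to the right at 0.70 and *Col8a2* farthest to the left at -0.39.

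*Col8a1*, which encodes a chain of the hexagonal network laid down by endothelial and smooth muscle cells, differed most. It lies on chromosome 16 of GRCm38 from 57624258 to 57754737, with 4 exons in its longest coding transcript. The control pools had 7.77 (replicate 3), 6.14 (replicate 4) and 8.01 CPM (replicate 5), and the *Gata6STOP/+* pools had 10.8 (replicate 1), 13.7 (replicate 3), 11.9 (replicate 4) and 12.3 CPM (replicate 5). Every *Gata6STOP/+* pool exceeded every control pool. The means were 7.31±1.02 and 12.2±1.23 CPM, a log2 fold change of 0.70±0.12 (s.e.) with an adjusted *P* of 0.172 by limma and 0.00095 by edgeR's likelihood ratio test. Its unadjusted *P* ranked 12 of 14732. The log2 fold change stayed between 0.59 and 0.80 over 18 other settings, in which the adjusted *P*-values ran from 0.0008 to 0.396. An exact two-sided permutation test gave *P*=0.0571, the smallest that 3 against 4 pools allow. Any gene whose groups do not overlap has this value, *Col12a1*, *Col4a5*, *Col4a6* and *Col6a2* included, so it adds nothing to the separation. *Col8a2* encodes the other chain of type VIII collagen and had 13.1, 20.5 and 17.4 CPM in control replicates 3, 4 and 5. It had 10.7, 12.5, 10.9 and 17.3 CPM in *Gata6STOP/+* replicates 1, 3, 4 and 5. The 2 groups of *Col8a2* overlapped through control replicate 3 and *Gata6STOP/+* replicate 5, and the log2 fold change of -0.39±0.18 did not pass the test (adjusted *P*=0.624).

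*Col12a1*, a FACIT that links fibrils to their surroundings, lies on chromosome 9 from 79598991 to 79718831 and had the next largest difference upward. The control pools lay close together at 138, 148 and 141 CPM (replicates 3, 4 and 5). The *Gata6STOP/+* pools had 266 (replicate 1), 149 (replicate 3), 242 (replicate 4) and 213 CPM (replicate 5). Replicate 3 thus lay next to the highest control pool while the other 3 lay well above, and the s.d. was 50.6 CPM around a mean of 217, compared with 5.35 CPM around 142 in controls. The log2 fold change was 0.58±0.16 (adjusted *P*=0.347 by limma and 0.0292 by edgeR's likelihood ratio test). Without *Gata6STOP/+* replicate 3 it was 0.75, with an adjusted *P* of 0.0191 by limma, a setting in which 0.0136% of all genes were called. With the Y-linked mean as a covariate it was 0.27, with an adjusted *P* of 0.664. Over all 18 other settings the adjusted *P*-value ran from 0.009 to 0.664. The summed Y-linked level was lowest among the *Gata6STOP/+* pools in the same replicate 3, at 70.4 CPM. In control replicates 3, 4 and 5 it was 93.4, 39.9 and 71.8 CPM. The covariate fit tested the genotype difference, while the part of the Y-linked level itself in the *Col12a1* values was not tested.

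**Figure D3:**
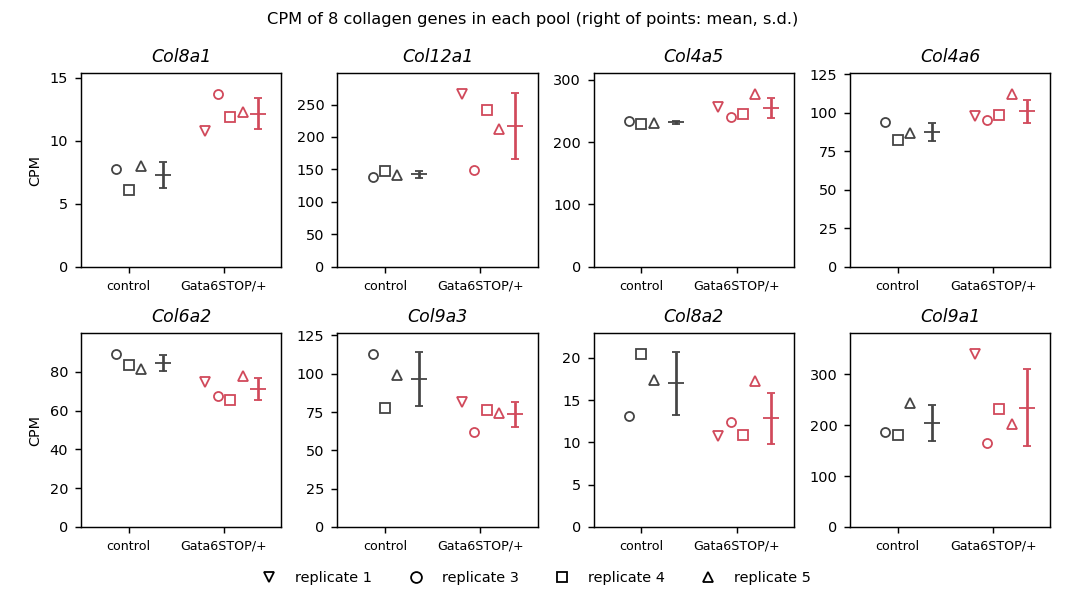
CPM of 8 collagen genes in each pool, with control pools in grey and *Gata6STOP/+* pools in red, replicate numbers as symbols, and mean±s.d. to the right of the points. *Col8a1* separates the groups widely, *Col12a1* separates them by 1 pool that lies at 149 CPM beside the control value of 148 CPM, and *Col9a1* is set apart mainly by *Gata6STOP/+* replicate 1 at 340 CPM.

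Of the 8 FACITs, *Col12a1* included, 4 had a higher and 4 a lower mean, and the class median was -0.07 (-0.29 with the Y-linked covariate). The type IX chains coat type II fibrils in cartilage, and their means lay on both sides of the controls. *Col9a1* had 186, 181 and 244 CPM in the control pools (replicates 3, 4 and 5) and 340, 165, 232 and 202 CPM in *Gata6STOP/+* replicates 1, 3, 4 and 5. Its groups overlapped, with the highest and the lowest value both in *Gata6STOP/+* pools (log2 fold change 0.17±0.20, adjusted *P*=0.870, and -0.03 without replicate 1). *Col9a3* had 113, 77.5 and 99.5 CPM in control replicates 3, 4 and 5, and 81.3, 61.9, 76.4 and 74.2 CPM in *Gata6STOP/+* replicates 1, 3, 4 and 5. Here 3 *Gata6STOP/+* pools lay below all control pools, while replicate 1 lay above control replicate 4 (log2 fold change -0.38±0.12, adjusted *P*=0.438). With the Y-linked mean as a covariate it was -0.71 with an adjusted *P* of 0.0241 (0.0407% of all genes were called in this setting), and over 18 settings the adjusted *P* ran from 0.0241 to 0.799. Exons of *Col9a3* share 234 bases with *Tcfl5* on the opposite strand, and whether the counting used strand is not given in the sources used here. Cartilage markers, of which 5 of 7 were analysed, summed to 375 to 470 CPM in control and 468 to 510 CPM in *Gata6STOP/+* pools, and their part in the type IX values was not tested. *Hapln1* made up most of these sums, with 305 to 395 CPM in control and 391 to 438 CPM in *Gata6STOP/+* pools, while *Matn4* and *Sox5* had log2 fold changes of -0.19 and -0.22.

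*Col9a2*, the remaining type IX chain, had overlapping groups, at 42.2 to 49.8 CPM in control and 35.8 to 50.5 CPM in *Gata6STOP/+* pools. *Col16a1*, a FACIT of many tissues, had 129, 103 and 126 CPM in control replicates 3, 4 and 5 and 115, 89.4, 97.0 and 122 CPM in *Gata6STOP/+* replicates 1, 3, 4 and 5, with overlapping groups (log2 fold change -0.18±0.11). *Col14a1*, which binds to fibrils through their proteoglycans, had 34.8, 30.6 and 28.9 CPM in the controls and 33.4, 22.0, 23.6 and 26.7 CPM in the *Gata6STOP/+* pools, in the same order. Here 3 *Gata6STOP/+* pools lay below the controls and replicate 1 lay among them (log2 fold change -0.26±0.13, adjusted *P*=0.657). *Col22a1*, a chain known from tissue junctions, had 20.1, 15.4 and 17.0 CPM in the controls and 24.0, 18.9, 24.2 and 17.8 CPM in the *Gata6STOP/+* pools, and the groups overlapped (log2 fold change 0.27±0.13, adjusted *P*=0.652). *Col20a1* was near the table's lower limit, at 0.666 to 1.30 CPM.

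Of the basement membrane collagens, the X-linked pair was higher in every *Gata6STOP/+* pool, by a small amount. *Col4a5* had 235, 230 and 230 CPM in control replicates 3, 4 and 5 and 256, 240, 246 and 277 CPM in *Gata6STOP/+* replicates 1, 3, 4 and 5 (log2 fold change 0.14±0.06, adjusted *P*=0.627). *Col4a6* had 94.0, 82.2 and 86.6 CPM in the controls and 97.8, 95.0, 98.6 and 112 CPM in the *Gata6STOP/+* pools, in the same order (log2 fold change 0.20±0.07, adjusted *P*=0.517). Replicate 5 was highest for both genes. The gap between the groups was narrow, between 94.0 and 95.0 CPM for *Col4a6*. With the Y-linked mean as a covariate, the log2 fold changes were 0.09 for *Col4a5* and 0.11 for *Col4a6*. The ubiquitous type IV chains had lower means in *Gata6STOP/+* OFTs. *Col4a1* had 698, 868 and 681 CPM in the controls and 668, 618, 686 and 725 CPM in the *Gata6STOP/+* pools (log2 fold change -0.14±0.09, adjusted *P*=0.746). *Col4a2* had 472, 560 and 439 CPM in the controls and 439, 406, 471 and 476 CPM in the *Gata6STOP/+* pools (log2 fold change -0.12±0.09, adjusted *P*=0.782). For both genes the groups overlapped, with control replicate 4 highest of all pools and *Gata6STOP/+* replicate 3 lowest. Without control replicate 4 the log2 fold change was -0.034 for *Col4a1* and -0.025 for *Col4a2*. Endothelial and endocardial markers, summed over 7 genes, had 864, 1034 and 758 CPM in control replicates 3, 4 and 5. They had 982, 838, 1031 and 906 CPM in *Gata6STOP/+* replicates 1, 3, 4 and 5. The part of these cells in the type IV values was not tested. *Col18a1*, whose C-terminal fragment is endostatin, had 1192, 1036 and 981 CPM in the controls and 1148, 922, 1074 and 1073 CPM in the *Gata6STOP/+* pools, fully overlapping (log2 fold change -0.02±0.10). *Col15a1*, its relative, had 23.0±3.30 CPM and 25.2±5.14 CPM.

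The type IV genes lie in head-to-head pairs. *Col4a1* (chromosome 8, 11198423 to 11312826, minus strand) and *Col4a2* (11312805 to 11449287, plus strand) overlap by 22 bases at their first exons. *Col4a6* (chromosome X, 141165403 to 141474076, minus strand) and *Col4a5* (141475385 to 141689234, plus strand) are 1308 bases apart. The windows around the starts of *Col4a2* and *Col4a6* are shown because these pairs gave the steadiest ratios below. They run from 250 bases before to 50 bases after the start and come from RefSeq (GRCm38.p6). In the first, capitals mark the 22 bases that lie in both genes, and in the second, capitals mark matches to a GATA motif.

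*Col4a2*, chr8:11312555-11312854, plus strand: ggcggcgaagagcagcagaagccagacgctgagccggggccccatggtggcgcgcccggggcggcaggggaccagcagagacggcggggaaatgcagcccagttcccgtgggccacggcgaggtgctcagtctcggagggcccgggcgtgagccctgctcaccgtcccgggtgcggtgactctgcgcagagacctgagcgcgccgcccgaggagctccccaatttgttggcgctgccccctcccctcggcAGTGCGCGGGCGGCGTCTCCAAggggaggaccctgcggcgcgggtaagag

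*Col4a6*, chrX:141474027-141474326, minus strand: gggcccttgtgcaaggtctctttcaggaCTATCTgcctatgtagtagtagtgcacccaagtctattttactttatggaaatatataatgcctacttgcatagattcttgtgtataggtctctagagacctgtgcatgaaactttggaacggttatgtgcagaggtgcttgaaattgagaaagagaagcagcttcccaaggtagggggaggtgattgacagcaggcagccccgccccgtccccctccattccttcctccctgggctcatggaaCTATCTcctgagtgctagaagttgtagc

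GATA6 belongs to the GATA family of transcription factors, which bind sequences of this kind. The letters searched were AGATAA as well as AGATAG, and further TGATAA as well as TGATAG, each on both strands. Windows were found for 27 of the 35 collagens, 30 windows in all, and 4 of these (13.3%) held at least 1 match, in *Col3a1*, *Col27a1*, *Col11a2* and *Col4a6*, compared with 29.8% of 32851 windows of all genes. A match is a run of letters and no evidence of binding, and *Col8a1*, whose window was among the 27, had 0 matches. No window was at hand for *Col1a1*, *Col2a1*, *Col5a2*, *Col9a3*, *Col12a1*, *Col14a1*, *Col22a1* and *Col26a1*.

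Within the type IV pairs the ratio of the chains hardly varied. The size of each per-kilobase ratio depends on the transcript lengths used, but its relative differences between pools do not. The per-kilobase ratio of *Col4a1* to *Col4a2* lay between 1.42 and 1.51 in all 7 pools, and that of *Col4a5* to *Col4a6* between 2.51 and 2.84. Between the pairs the ratio varied more. *Col4a5* to *Col4a1* was 0.340, 0.268 and 0.342 in control replicates 3, 4 and 5 and 0.388, 0.393, 0.362 and 0.387 in *Gata6STOP/+* replicates 1, 3, 4 and 5. Every *Gata6STOP/+* ratio lay above every control ratio.

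Type I collagen is built of both *Col1a1* and *Col1a2* chains. Their per-kilobase ratio was 1.16, 0.927 and 1.05 in control replicates 3, 4 and 5 and 0.744, 0.965, 0.786 and 0.951 in *Gata6STOP/+* replicates 1, 3, 4 and 5. The groups overlapped, although 2 *Gata6STOP/+* pools lay below all controls. The ratio of *Col8a1* to *Col8a2* was 0.503, 0.255 and 0.390 in the controls and 0.851, 0.934, 0.924 and 0.605 in the *Gata6STOP/+* pools, in the same order. These groups did not overlap, and the mean ratio was 2.17-fold higher in *Gata6STOP/+* OFTs. *Col9a1* to *Col9a3* was 1.31, 1.85 and 1.95 in the controls and 3.32, 2.12, 2.41 and 2.16 in the *Gata6STOP/+* pools, again without overlap. Of the 12 ratios computed, these 3 (*Col4a5* to *Col4a1*, *Col8a1* to *Col8a2* and *Col9a1* to *Col9a3*) separated the groups. *Col4a5* and *Col8a1* also did so alone, and how often ratios of other genes do so was not computed. The ratios were compared as a description, since they were chosen with the values of the genes known.

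**Figure D4:**
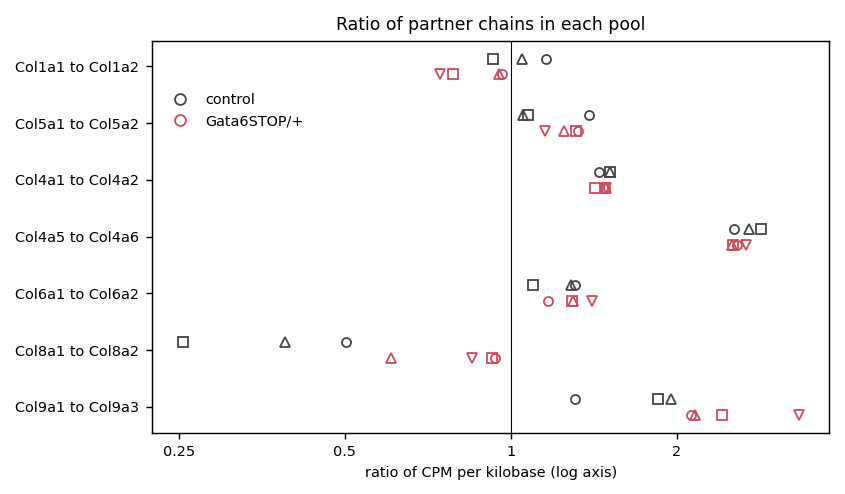
Per-kilobase ratio of partner chains in each pool on a log axis, with control pools in grey, *Gata6STOP/+* pools in red and replicate numbers as symbols. The *Col4a1* to *Col4a2* ratios sit between 1.42 and 1.51 in all 7 pools, while the *Col8a1* to *Col8a2* ratios run from 0.255 to 0.503 in controls and from 0.605 to 0.934 in *Gata6STOP/+* pools.

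Among the fibrillar collagens, 0 of 10 had groups that did not overlap or an unadjusted *P*-value under 0.05, and the median log2 fold change was -0.03, with 4 higher and 6 lower means. Without *Gata6STOP/+* replicate 3 this median was 0.07, and without control replicate 5 it was 0.0056. With the Y-linked mean as a covariate it was -0.20. *Col3a1* had 2127, 2073 and 2100 CPM in control replicates 3, 4 and 5 and 2449, 1364, 1821 and 1914 CPM in *Gata6STOP/+* replicates 1, 3, 4 and 5. The controls agreed closely, while the *Gata6STOP/+* pools lay on both sides of them (log2 fold change -0.18±0.16, adjusted *P*=0.807). It was -0.039 without *Gata6STOP/+* replicate 3, -0.32 without replicate 1 and -0.47 with the Y-linked covariate. *Col3a1* shares 141 exonic bases with the annotated gene *Gm47302* on the same strand. *Col1a1*, the major chain of type I collagen, had 1329, 1096 and 1228 CPM in the controls and 1298, 1083, 1035 and 1343 CPM in the *Gata6STOP/+* pools, overlapping throughout (log2 fold change -0.04±0.11). *Col1a2* had 1036, 1066 and 1058 CPM in the controls and 1574, 1012, 1188 and 1275 CPM in the *Gata6STOP/+* pools. For *Col1a2*, 3 *Gata6STOP/+* pools lay above all controls and replicate 3 below them (log2 fold change 0.24±0.13, adjusted *P*=0.673).

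*Col5a2*, a chain of the collagen that seeds type I fibrils, lies 24614 bases from *Col3a1* on chromosome 1. It had 449, 484 and 509 CPM in the controls and 595, 356, 474 and 487 CPM in the *Gata6STOP/+* pools, with both extremes in the latter (log2 fold change -0.03±0.14). Its partner *Col5a1* had 659 to 790 CPM in control and 597 to 870 CPM in *Gata6STOP/+* pools. *Col2a1*, the main chain of cartilage fibrils, had 472 to 648 CPM and 436 to 552 CPM (log2 fold change -0.16±0.11). The type XI chains, minor partners in fibrils, and *Col27a1* and *Col24a1* had log2 fold changes between -0.08 and 0.11.

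Of the other collagens, 9 of 11 had a lower mean in *Gata6STOP/+* OFTs and the median log2 fold change was -0.18. Without control replicate 4 this median was -0.0021, with 6 of 11 means lower. *Col6a2*, a chain of the beaded filaments around cells, had 89.2, 83.5 and 81.5 CPM in control replicates 3, 4 and 5 and 74.6, 67.5, 65.7 and 77.6 CPM in *Gata6STOP/+* replicates 1, 3, 4 and 5. Every *Gata6STOP/+* pool lay below every control pool (log2 fold change -0.25±0.07, adjusted *P*=0.385). *Col6a1*, 85161 bases away on chromosome 10, had 103, 80.8 and 92.3 CPM in the controls and 92.3, 69.3, 74.6 and 88.6 CPM in the *Gata6STOP/+* pools. Its groups overlapped (log2 fold change -0.18±0.11, adjusted *P*=0.729). *Col6a3*, the third chain of the filament, had 45.5 to 51.5 CPM in the controls and 32.0 to 78.5 CPM in the *Gata6STOP/+* pools, and *Col6a6* had 9.04 to 13.5 and 6.81 to 11.6 CPM.

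*Col7a1*, the chain of the anchoring fibrils beneath epithelia, had 7.38, 6.52 and 5.21 CPM in the controls and 5.96, 5.29, 5.45 and 4.13 CPM in the *Gata6STOP/+* pools, with overlapping groups (log2 fold change -0.27±0.16, adjusted *P*=0.720). *Col26a1*, a chain first described in testis and ovary, had 28.5, 39.4 and 28.3 CPM in the controls and 29.3, 22.8, 30.1 and 32.2 CPM in the *Gata6STOP/+* pools (log2 fold change -0.16±0.14). Control replicate 4 stood above the rest, and without it the log2 fold change was -0.0021. The same pool was highest for the transmembrane chains *Col13a1* (23.2 CPM, where the other 6 pools had 13.6 to 16.8) and *Col23a1* (39.1 CPM, where the others had 17.3 to 24.4). All 3 transmembrane collagens (*Col13a1*, *Col23a1* and *Col25a1*) had a lower mean in *Gata6STOP/+* OFTs, with a median log2 fold change of -0.17 and overlapping groups. Without control replicate 4 the log2 fold changes were 0.028 for *Col13a1*, 0.16 for *Col23a1* and 0.028 for *Col25a1*. For *Col13a1* and *Col23a1* they stayed negative when any other pool was left out. That of *Col25a1* was also positive without control replicate 5 (0.042) and without *Gata6STOP/+* replicate 3 (0.080).

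The *Gata6STOP/+* pools differed among themselves. The s.d. of log2 values was larger among *Gata6STOP/+* pools for 21 of 35 collagens (60%), compared with 50.3% of all genes. The classes differed in this: it was larger for 7 of 10 fibrillar and 7 of 8 FACIT genes, but for 3 of 6 basement membrane and 4 of 11 other collagens. Replicate 3 was the lowest of the 4 *Gata6STOP/+* pools for 25 collagens (71.4%), while it was the lowest for 27.9% of all genes. Replicate 1 was the highest for 19 collagens (54.3%), while it was the highest for 29.3% of all genes. The summed cardiomyocyte markers ran the other way, at 22861 CPM in *Gata6STOP/+* replicate 3, 16273 CPM in replicate 1 and 19476 to 21950 CPM in the controls. The part of the cell composition in these levels was not tested.

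**Figure D5:**
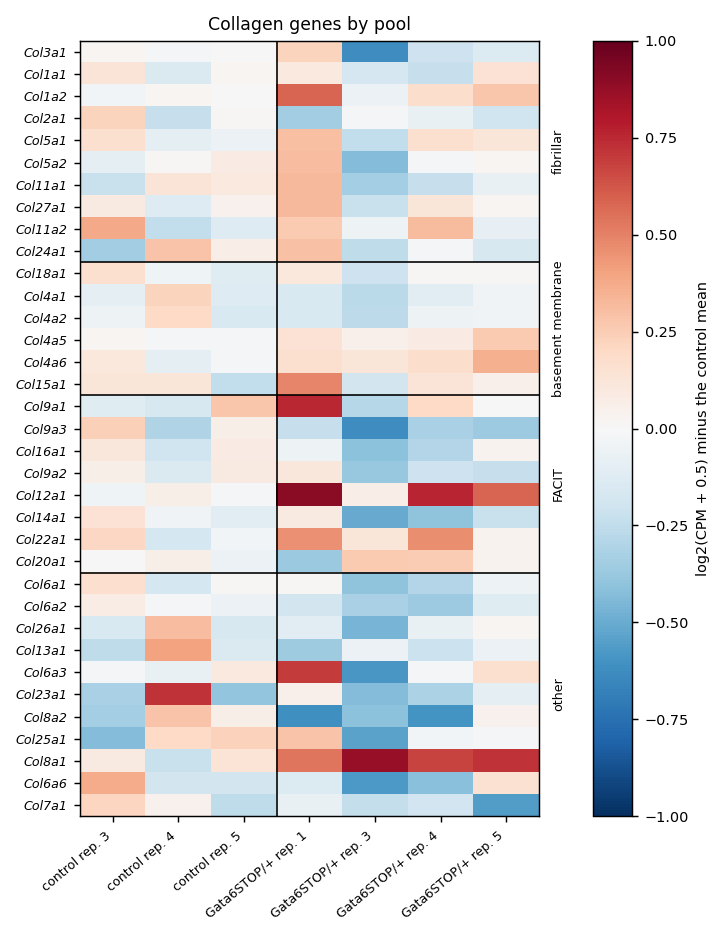
Value of each collagen gene in each pool as log2(CPM+0.5) minus the mean of the control pools, from blue (lower) to red (higher), with genes sorted by class and control level. The column of *Gata6STOP/+* replicate 3 is the lowest of its group for 25 of the 35 genes and that of replicate 1 the highest for 19.

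Genes that act on collagen were also compared, in lists of known roles. Of 20 genes that fold and modify chains in the endoplasmic reticulum, 16 had a lower and 4 a higher mean, with a median log2 fold change of -0.06. The prolyl 3-hydroxylase gene *P3h2*, whose enzyme acts on type IV chains, had 55.4 to 63.6 CPM in control and 64.2 to 79.9 CPM in *Gata6STOP/+* pools (log2 fold change 0.28, adjusted *P*=0.400 by limma). *Crtap*, a subunit of the prolyl 3-hydroxylation complex of fibrillar chains, had 92.7 to 105 CPM and 86.3 to 90.5 CPM (log2 fold change -0.18, adjusted *P*=0.474). Neither gene's groups overlapped. Of 12 analysed genes that trim and crosslink procollagen, 6 had a higher and 6 a lower mean, and 0 separated the groups.

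Of 10 analysed proteoglycans and partners that regulate fibrils, 6 had a higher mean. *Fmod*, which encodes fibromodulin, had 27.8 to 33.6 CPM in control and 35.0 to 49.6 CPM in *Gata6STOP/+* pools, without overlap (log2 fold change 0.43, adjusted *P*=0.333). Of 9 analysed collagen receptors, 6 had a higher mean, and those for the integrin chains alpha 11 and alpha 1 separated the groups. *Itga11* had 3.79, 3.97 and 3.58 CPM in control replicates 3, 4 and 5 and 8.95, 6.05, 7.12 and 5.90 CPM in *Gata6STOP/+* replicates 1, 3, 4 and 5 (log2 fold change 0.79±0.15, adjusted *P*=0.186). *Itga1* had 123 to 126 CPM and 140 to 161 CPM (log2 fold change 0.24, adjusted *P*=0.289).

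Of 12 further basement membrane components, 7 had a higher mean. *Lama1*, a laminin chain of early basement membranes, had 12.1 to 16.4 CPM in control and 17.9 to 21.3 CPM in *Gata6STOP/+* pools, without overlap (log2 fold change 0.54, adjusted *P*=0.241). In each of the 5 lists 0 genes had an adjusted *P*-value under 0.05 by limma, while an unadjusted one was found for 2 genes of folding and modification, 0 of processing and crosslinking, 1 of fibril regulation, 2 receptors and 2 basement membrane partners. The share of all genes with such a *P*-value was 8.06%, and 4.31% and 4.16% of all genes were higher or lower without overlap. A *P*-value that missed the threshold does not show that a gene had the same level in both genotypes.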

How the data were processed

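The deposited values are CPM, which the authors computed with edgeR from TMM-adjusted library sizes after adapter removal (cutadapt) and gene quantification (RSEM, GRCm38), leaving out genes that did not reach 1 CPM in 3 samples. All values of each pool were whole multiples of 1 step (100% within 0.01 of a whole number), so reads were recovered for the count tests. Genotypes were compared with limma 3.58.1 (R 4.3.3, with a mean-variance trend) on log2(CPM+0.5) in a two-sided test over all 7 pools without a block, with Benjamini-Hochberg adjustment over 14732 genes and a threshold of 0.05. Such fold changes understate those of genes with few reads. Nothing says whether the pools came from separate litters, so *P*-values measure the spread between these pools. Alternatives were constants of 0.1 and 2, a mean of at least 5 CPM, median-of-ratios rescaling, the replicate block, the Y-linked mean as covariate, edgeR 4.0.16 and DESeq2 1.42.0 on recovered reads, and each pool left out. The fits were tested on simulated data. Exact permutation tests used scipy 1.17.1. Lengths, positions and overlaps come from GENCODE M21 (GRCm38). Values in every pool are given for the 8 largest changes with a mean of at least 5 CPM, non-overlapping members, the 3 highest levels per class, *Col12a1* and neighbouring pairs. The members, lists and tests were chosen with earlier results of these data known. The collagen genes *Col4a3*, *Col4a4*, *Col5a3*, *Col6a4*, *Col6a5*, *Col10a1*, *Col17a1*, *Col19a1*, *Col21a1* and *Col28a1* were not analysed here.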

Additional observations from a re-analysis of the deposited data

How the results depend on the processing

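The count of collagens with an adjusted *P*-value under 0.05, 0 with limma, was 0 with the other constants, the minimum of 5 CPM, median-of-ratios rescaling, the replicate block and edgeR's quasi-likelihood test with or without the block. It was 2 (*Col8a1* and *Col12a1*) with edgeR's likelihood ratio test, with and without the block, and with DESeq2, and 1 (*Col9a3*) with the Y-linked mean as a covariate. Leaving out 1 pool gave 0 to 1, the 1 being *Col12a1* without *Gata6STOP/+* replicate 3. With the Y-linked covariate the median log2 fold change was -0.29 for FACITs, -0.20 for fibrillar collagens, -0.20 for the other collagens and -0.077 for basement membrane collagens. For the other collagens it ran from -0.25 to -0.0021 when a pool was left out, the last without control replicate 4. Medians changed sign in the basement membrane class (-0.04 to 0.10) and the fibrillar class (-0.09 to 0.07) with a pool left out. The same was true of *Col18a1* (-0.081 to 0.059), *Col1a1* (-0.11 to 0.027), *Col5a2* (-0.14 to 0.11) and *Col9a1* (-0.030 to 0.32). *Col9a1* was also at -0.20 with the Y-linked covariate and at -0.030 with the replicate block, by limma, edgeR's quasi-likelihood test and its likelihood ratio test alike. In the block, *Gata6STOP/+* replicate 1 has no partner, so the limma fold changes with the block repeat those without that pool. Same-numbered pools did not deviate together (r=-0.05 for replicate 3, -0.27 for replicate 4 and -0.02 for replicate 5), so the numbers were not read as pairs. The causes were not tested.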
